A study of Homo sapiens with 6 samples.

Results

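RNA polymerase I (Pol I) and RNA polymerase III (Pol III) make the non-coding RNAs on which protein synthesis rests. Pol I transcribes the ribosomal DNA in the nucleolus into the precursor of the large ribosomal RNAs. Pol III makes tRNAs, the smallest ribosomal RNA and other short RNAs, through promoter factors named TFIIIA, TFIIIB and TFIIIC. The mRNAs that encode this machinery were followed here through 36 genes, chosen by name from a list of Pol I and Pol III subunits, their general factors and 4 nucleolar cofactors. All 36 names were found among the 56303 gene entries of the deposited count table, and all 36 passed the filter on low counts.

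The libraries came from AGS, a long-established cell line from a human stomach adenocarcinoma. In one group of 3 libraries, titled siSRSF and here called siSRSF2, the genotype label gives a knockdown of SRSF2, a serine/arginine-rich splicing factor; the other group of 3 libraries is labelled WT. The labels state neither a control siRNA for WT, nor a time of treatment, nor separate cultures for the replicates, so the p-values cover only the spread among these 6 samples, which could be technical. Levels are CPM, counts per 1000000 of a library whose size was adjusted by TMM, a normalization that centres the bulk of genes. Changes are log2 fold changes of siSRSF2 over WT from edgeR's quasi-likelihood test, adjusted over all 23689 tested genes and called at an adjusted p under 0.05.

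Library totals were 47518943 to 50021152 counts in WT and 26610937 to 36651623 in siSRSF2, so depth moved with the group. SRSF2 stood at 44.5, 46.4 and 44.1 CPM in WT libraries and 21.6, 21.8 and 24.9 CPM in siSRSF2 libraries (log2 fold change -0.98 with an SE of 0.0638, edgeR adjusted p = 4.39e-13). Its exons share 36.7% of their length with MFSD11 on the opposite strand. Of 9 epithelial and gastric markers, KRT8 and KRT18 were abundant, at 3236 ± 156 and 1099 ± 53.5 CPM in WT, whereas CDH1 lay at 0.219 ± 0.0573 CPM and TFF1 had 2 counts in 1 library and 0 in the others. Of these 9, 8 were tested, with 2 higher, 1 lower and 5 not passing. CLDN4 (log2 fold change 1.79, 1.45 to 4.99 CPM) and CLDN18 (1.68, 0.733 to 2.33 CPM) rose from low levels, and KRT8 fell (-0.22). The 11 leukocyte, fibroblast and endothelial markers summed to 24.3 to 25.1 CPM in WT and 59.8 to 64.5 CPM in siSRSF2 libraries. Of these 11, 7 were tested, with 4 higher and 2 lower. Among them, the log2 fold change was 2.33 for DCN and -2.03 for PECAM1. The leukocyte-defining PTPRC was at 0.0706 ± 0.0479 CPM in WT and 0.169 ± 0.0930 CPM in siSRSF2, and CD3E was at 0 in 5 of 6 libraries. The part of these markers in the results was not tested.

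Most of the Pol I and Pol III machinery was lower when SRSF2 was silenced. Of the 36 genes, 28 fell, 3 rose and 5 did not pass. Across all tested genes 59.1% were called, 29.0% lower and 30.1% higher. The median log2 fold change of the 36 genes was -0.70, beside 0.02 for all tested genes. Falls of more than 2-fold were found in 12 of the 36, against 5.91% of all tested genes. A further 7 fell by 1.5-fold to 2-fold and 9 by less than 1.5-fold. The libraries of the groups did not overlap in 32 of the 36 genes, 29 lower and 3 higher, where the background was 31.2% and 32.5%. The 3 genes that rose were POLR3GL, BRF2 and POLR1D, and those that did not pass were POLR3D, TAF1B, TAF1C, GTF3C2 and GTF3C3.

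Scaling by library totals, without TMM, moved the median of all genes from 0.02 to 0.15 and that of the 36 genes to -0.57, with 24 lower and 4 higher. Among all genes this scaling gave 8560 higher and 5492 lower calls, 60.9% of them higher, against 51% with TMM. With every library thinned to the smallest total, an alternative chosen after the data were seen, 27 were lower and 3 higher. Other genes share exon positions with 19 of the 36, and whether reads were counted by strand is not known here. In bulk RNA, fewer cells of a type and less RNA per cell cannot be told apart.

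**Figure D1:**
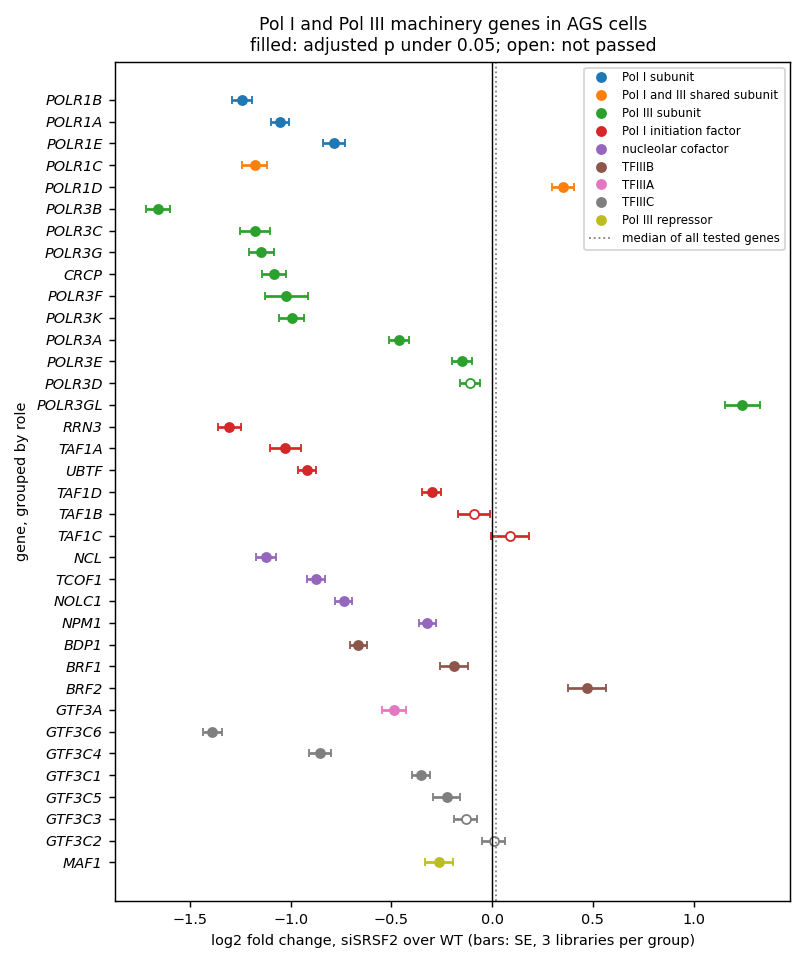
Log2 fold change (horizontal axis, bars are SE) of each of the 36 genes (vertical axis), coloured by role, with filled points for an adjusted p under 0.05 and open points for genes that did not pass. Points run from -1.66 for POLR3B to 1.24 for POLR3GL, and 28 filled points lie left of 0.

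**Figure D2:**
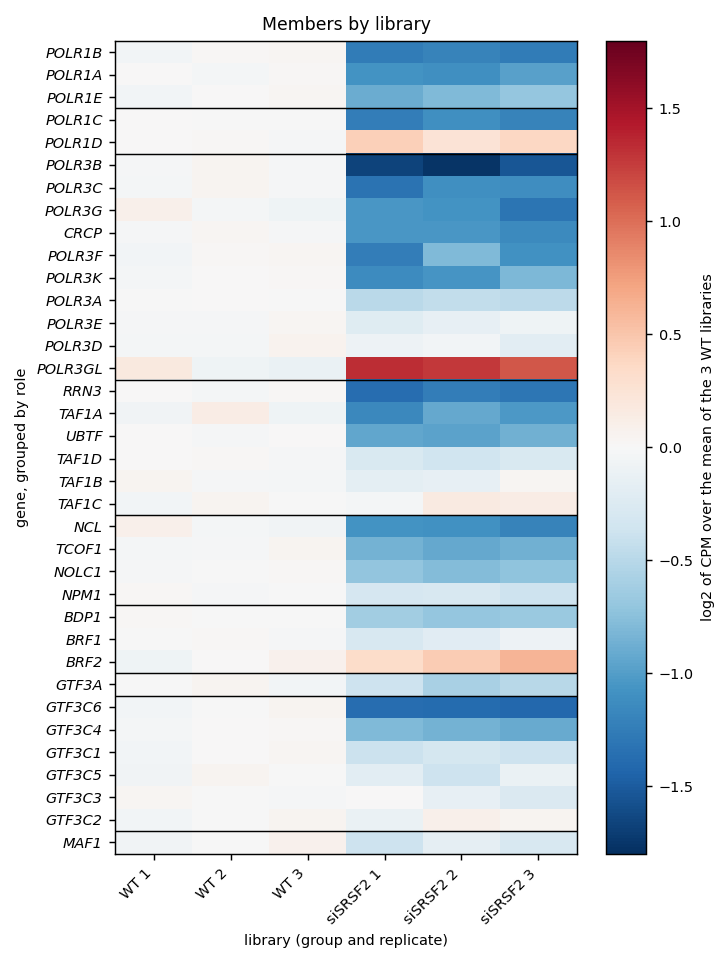
Level of each gene (rows, grouped by role) in each of the 6 libraries (columns), as the log2 of CPM over the mean of the 3 WT libraries. The siSRSF2 columns are blue in most rows and red for POLR1D, POLR3GL and BRF2.

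RefSeq promoters (250 bases before to 50 after a gene's start, GRCh38.p14) were found for 28 of the 36 genes, 10 of them with several starts. They were searched on both strands for the E-box CACGTG, bound by MYC with MAX among other factors, the ETS core CCGGAAG and the NRF1 core TGCGCA. Matches of different motifs may overlap, and each was counted. The E-box was in at least 1 promoter of 6 of 28 genes (21.4%), the ETS core in 15 (53.6%) and the NRF1 core in 5 (17.9%). Among the 11346 tested genes with a promoter entry these shares were 12.2%, 20.2% and 15.1%, and among all 27305 genes with an entry 8.77%, 12.2% and 9.76%. Among the 4273 genes with an entry that were called lower they were 13.8%, 25.9% and 17.6%. A match is a description and not a binding site.

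The 5 windows of 60 bases that follow are shown because their genes carry a searched motif and moved differently: GTF3C6, RRN3, POLR1B and POLR3C fell by more than 2-fold, and GTF3C2 was nearly level. Capitals mark the E-box in GTF3C6, POLR3C and GTF3C2 and the ETS core in RRN3 (as its reverse complement CTTCCGG) and POLR1B, read 5′ to 3′ along the gene's strand.
GTF3C6 (chr6:110958537-110958596, plus strand): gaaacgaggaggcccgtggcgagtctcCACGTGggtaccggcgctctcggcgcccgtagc
POLR3C (chr1:145823977-145824036, plus strand): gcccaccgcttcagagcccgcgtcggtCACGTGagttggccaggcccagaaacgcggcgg
RRN3 (chr16:15094277-15094336, minus strand): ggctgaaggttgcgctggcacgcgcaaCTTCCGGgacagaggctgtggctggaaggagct
POLR1B (chr2:112541883-112541942, plus strand): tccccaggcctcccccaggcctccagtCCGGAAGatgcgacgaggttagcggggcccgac
GTF3C2 (chr2:27356835-27356894, minus strand): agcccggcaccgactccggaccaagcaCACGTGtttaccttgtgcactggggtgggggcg

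GTF3C6, POLR3C and GTF3C2 hold an E-box, and elsewhere in the promoter an ETS core, and their log2 fold changes were -1.39, -1.18 and 0.01. The ETS core of RRN3 and POLR1B stands beside log2 fold changes of -1.30 and -1.24. The 15 genes with an ETS core had a median log2 fold change of -0.49 and the other 13 one of -0.66. For the E-box these medians were -0.66 in 6 genes and -0.58 in 22. For the NRF1 core they were -0.49 in 5 genes and -0.66 in 23. The E-box and the ETS core were present both in genes that fell by more than 2-fold and in genes that did not pass the test. The 5 genes with an NRF1 core all fell, as did 28 of all 36 genes (77.8%).

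The genes for subunits specific to Pol I fell. POLR1A and POLR1B, which encode the 2 largest subunits and form the catalytic centre, and POLR1E, a subunit that helps the enzyme initiate and elongate, were each lower in every siSRSF2 library than in any WT library. POLR1B (chromosome 2, 112541915 to 112577150, plus strand, 20 merged exons) stood at 88.2, 92.3 and 93.6 CPM in WT libraries and 38.0, 39.8 and 38.1 CPM in siSRSF2 libraries (log2 fold change -1.24 with an SE of 0.0512, edgeR adjusted p = 4.81e-17). The libraries of each group lay close together and the groups were well apart. POLR1A (chromosome 2, 86020216 to 86106155, minus strand) stood at 197, 191 and 199 CPM in WT libraries and 92.9, 91.5 and 99.1 CPM in siSRSF2 libraries (log2 fold change -1.05 with an SE of 0.0466, edgeR adjusted p = 1.88e-16). POLR1E fell 1.72-fold, from 72.2 ± 2.0 to 41.9 ± 2.89 CPM (SD, n = 3 per group, as throughout). Outside the 36, the remaining Pol I subunit genes CD3EAP (called POLR1G today; -2.04), TWISTNB (POLR1F; -1.13) and ZNRD1 (POLR1H; -0.42) fell too, so that 6 of 6 genes for subunits specific to Pol I were lower. CD3EAP shares 43.5% of its exon length with ERCC1 on the other strand. The log2 fold change of ERCC1 was -1.99 at nearly the same level (181 CPM in WT, against 184 for CD3EAP). Because counting by strand is not known, reads at the shared positions cannot be assigned to either gene. Their part in the CD3EAP fall was not tested.

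POLR1C and POLR1D encode a pair of small subunits that assemble with each other and that Pol I and Pol III share. They moved in opposite directions. POLR1C (chromosome 6, 43509702 to 43529585, plus strand) stood at 38.5, 38.1 and 38.0 CPM in WT libraries and 16.1, 17.7 and 16.7 CPM in siSRSF2 libraries (log2 fold change -1.18 with an SE of 0.0641, edgeR adjusted p = 1.18e-14). POLR1D (chromosome 13, 27620742 to 27744237, plus strand) stood at 43.8, 44.2 and 43.0 CPM in WT libraries and 58.9, 51.7 and 56.7 CPM in siSRSF2 libraries (log2 fold change 0.35 with an SE of 0.0560, edgeR adjusted p = 5e-06). All siSRSF2 libraries were below WT for the first and above WT for the second. POLR1C shares 13.7% of its exon length with RP3-337H4.9 on the opposite strand, which fell as well (-1.25). The POLR1D rise was also called with scaling by totals (0.48) and in a test against a change of 1.2-fold (edgeR adjusted p = 0.0416).

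Among the genes for Pol III itself, 8 of 10 fell, 1 rose and 1 did not pass, with a median log2 fold change of -1.01. The catalytic centre is formed by the products of POLR3A and POLR3B, which fell to different extents. POLR3B (chromosome 12, 106357658 to 106510198, plus strand, 31 merged exons) had the largest fall of the 36 genes, at 82.2, 86.7 and 82.4 CPM in WT libraries and 26.4, 24.6 and 28.7 CPM in siSRSF2 libraries (log2 fold change -1.66 with an SE of 0.0589, edgeR adjusted p = 2.48e-18). This is a 3.16-fold fall, and 1.04% of all tested genes had a lower log2 fold change. POLR3A fell 1.38-fold, from 75.6 ± 0.357 to 54.8 ± 0.847 CPM (log2 fold change -0.46 with an SE of 0.0486, edgeR adjusted p = 5.1e-09). Per kilobase of merged exon, POLR3B went from 17.2 ± 0.523 to 5.47 ± 0.428 CPM per kb and POLR3A from 8.48 ± 0.0401 to 6.15 ± 0.0949. On this scale POLR3B was above POLR3A in WT and slightly below it in siSRSF2 cells. The scale rests on merged exons, 4858 bases for POLR3B and 8917 for POLR3A, and not on the isoforms the cells use. The ranges of mean ± SD did not overlap in either group, but this spread does not cover an error in the lengths.

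The heterotrimer of POLR3C, POLR3F and POLR3G or its paralog POLR3GL helps open the promoter and contacts TFIIIB. POLR3C fell 2.26-fold (30.5 ± 0.997 to 13.4 ± 1.16 CPM), POLR3F 2.03-fold (13.2 ± 0.408 to 6.48 ± 1.03 CPM) and POLR3G 2.21-fold. POLR3F rests on 152 to 293 counts in siSRSF2 libraries and has the widest SE of the 36 genes (0.104). The genes of the heterodimer of POLR3D and POLR3E, which aids initiation and termination, had log2 fold changes near 0. POLR3D stood at 108, 107 and 116 CPM in WT libraries and 103, 107 and 96.5 CPM in siSRSF2 libraries and did not pass (log2 fold change -0.11 with an SE of 0.0496, edgeR adjusted p = 0.0581). It lay 0.02 above 0 with scaling by totals and passed without siSRSF2 replicate 2 (-0.15, edgeR adjusted p = 0.0199). POLR3E was called lower at -0.15 (edgeR adjusted p = 0.0112; 86.2 ± 2.04 to 77.7 ± 3.80 CPM), a call that ended with scaling by totals (-0.02, edgeR adjusted p = 0.787), among genes averaging 1 CPM or more (edgeR adjusted p = 0.0767) and without siSRSF2 replicate 1 (edgeR adjusted p = 0.0745).

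The remaining Pol III genes fell by about 2-fold. POLR3K encodes the subunit for RNA cleavage and termination, and fell 1.99-fold (183 ± 3.41 to 91.8 ± 10.8 CPM). CRCP encodes a stalk subunit and fell 2.12-fold (43.6 ± 0.955 to 20.6 ± 0.819 CPM). CRCP shares 10.1% of its exon length with AC068533.7 on the same strand (-0.92), and POLR3K 8.10% with SNRNP25 on the opposite strand (-0.71).

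POLR3G and POLR3GL are paralogs, and a Pol III enzyme holds the product of one or the other. POLR3G is known as the form of stem, embryonic and many tumour cells, and POLR3GL as the form of most differentiated tissues. In siSRSF2 cells the first fell and the second rose. POLR3G (chromosome 5, 90471748 to 90514553, plus strand) stood at 173, 158 and 153 CPM in WT libraries and 77.8, 76.4 and 64.9 CPM in siSRSF2 libraries (log2 fold change -1.14 with an SE of 0.0628, edgeR adjusted p = 6.63e-12). POLR3GL (chromosome 1, 145964702 to 145978848, plus strand) stood at 11.9, 9.98 and 9.65 CPM in WT libraries and 26.5, 25.5 and 22.8 CPM in siSRSF2 libraries (log2 fold change 1.24 with an SE of 0.0860, edgeR adjusted p = 1.63e-12). POLR3G remained the more abundant transcript in every library, but the gap narrowed.

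With a prior count of 2, the log2 CPM of POLR3G minus that of POLR3GL was 3.85, 3.98 and 3.98 in WT and 1.55, 1.58 and 1.51 in siSRSF2 libraries. The mean went from 3.94 ± 0.0755 to 1.55 ± 0.0385, a difference of -2.39, and the two-sided exact permutation p was 0.1, the lowest value possible for 3 libraries in each group. Per kilobase of exon, POLR3G made up 87.3% ± 0.592 of the sum of both genes in WT and 56.7% ± 0.653 in siSRSF2. These shares rest on merged exons and not on the isoforms the cells use. Of the exon length of POLR3GL, 21.2% is shared with CH17-270A2.2 on the same strand, a more abundant transcript that fell (-0.90, 109 to 58.1 CPM), in the direction opposite to POLR3GL.

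**Figure D3:**
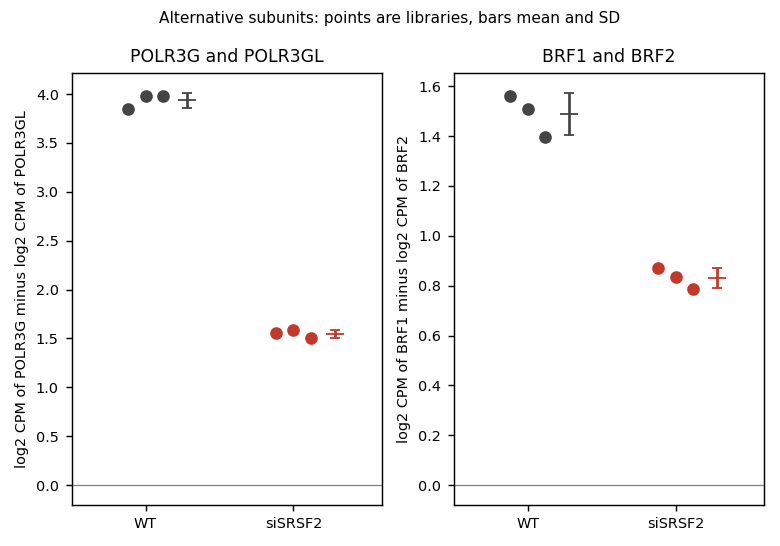
Difference of log2 CPM (vertical axes) between POLR3G and POLR3GL (left) and between BRF1 and BRF2 (right) in each library, with mean and SD of 3 libraries per group (horizontal axis). The siSRSF2 libraries lie below the WT libraries in both panels, by 2.39 and 0.657 log2 units between the means.

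Factors that start Pol I transcription were mixed, with 4 of 6 lower and 2 not passing. RRN3 encodes the factor that makes Pol I competent to initiate and is a known target of growth signalling. RRN3 (chromosome 16, 15060022 to 15094317, minus strand) stood at 71.0, 69.2 and 72.0 CPM in WT libraries and 27.3, 29.9 and 28.6 CPM in siSRSF2 libraries (log2 fold change -1.30 with an SE of 0.0551, edgeR adjusted p = 7.93e-17). The 3 RRN3P pseudogenes in the table together held 20.7% as many counts as RRN3 (584, 566 and 636 in WT, 243, 352 and 277 in siSRSF2), so the division of reads between near-identical copies is uncertain. UBTF, which coats active ribosomal DNA and bends it, fell 1.89-fold (337 ± 4.10 to 178 ± 6.32 CPM).

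TAF1A, TAF1B, TAF1C and TAF1D join the TATA-binding protein in selectivity factor 1, which places Pol I at its promoter. These 4 subunits did not move as a block. TAF1A (chromosome 1, 222557902 to 222589933, minus strand) stood at 27.0, 30.9 and 26.6 CPM in WT libraries and 12.6, 14.9 and 13.8 CPM in siSRSF2 libraries (log2 fold change -1.03 with an SE of 0.0788, edgeR adjusted p = 1.3e-11). TAF1D fell 1.23-fold (115 ± 1.85 to 93.3 ± 3.15 CPM; edgeR adjusted p = 0.155 against a change of 1.2-fold). Its merged exons share 2.97% of their length with CEP295 (log2 fold change -0.09), 2.05% with C11orf54 (which rose from 4.41 to 9.78 CPM) and 1.05% with MED17 (log2 fold change -1.13) on the opposite strand, and also share bases with 5 snoRNA genes of low count. TAF1B stood at 18.4, 17.5 and 17.4 CPM in WT libraries and 15.8, 16.0 and 18.3 CPM in siSRSF2 libraries (log2 fold change -0.09 with an SE of 0.0774, edgeR adjusted p = 0.338) and turned to 0.04 with scaling by totals. TAF1C stood at 9.63, 10.3 and 9.93 CPM in WT libraries and 9.68, 11.1 and 10.9 CPM in siSRSF2 libraries (log2 fold change 0.09 with an SE of 0.0928, edgeR adjusted p = 0.437). The groups overlapped for these last 2 genes, both at low levels, and TBP itself fell (-0.60).

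Nucleolar cofactors made up most of the RNA of the list and all 4 fell. NCL (nucleolin) and NPM1 (nucleophosmin), abundant nucleolar proteins that act on ribosomal DNA chromatin and ribosome assembly, supplied 69.7% to 72.1% of the summed CPM of the 36 genes in each library. NCL (chromosome 2, 231453531 to 231483641, minus strand) stood at 7916, 7263 and 7065 CPM in WT libraries and 3521, 3467 and 3221 CPM in siSRSF2 libraries (log2 fold change -1.12 with an SE of 0.0495, edgeR adjusted p = 1.75e-16). The fall of NPM1 was smaller, 1.25-fold (5408 ± 79.2 to 4328 ± 120.1 CPM), and did not pass against a change of 1.2-fold (edgeR adjusted p = 0.0645). The 45 NPM1 pseudogenes in the table held 2.65% as many counts as NPM1. TCOF1 (treacle), a nucleolar partner of UBTF and Pol I, stood at 883, 887 and 931 CPM in WT libraries and 501, 477 and 496 CPM in siSRSF2 libraries (log2 fold change -0.87 with an SE of 0.0437, edgeR adjusted p = 2.08e-15). NOLC1, a scaffold that binds treacle, fell 1.67-fold (931 ± 15.0 to 559 ± 15.2 CPM). Without NCL and NPM1, the remaining 34 genes summed to 5200.0 to 5291 CPM in WT and 3144 to 3218 CPM in siSRSF2 libraries.

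TFIIIB recruits Pol III and is built from TBP, BDP1 and either BRF1, at most promoters such as those of tRNA genes, or BRF2, at promoters that lie upstream of the gene as for U6 and 7SK RNA. BDP1 (chromosome 5, 71455615 to 71567820, plus strand, 40 merged exons) stood at 906, 888 and 885 CPM in WT libraries and 577, 552 and 562 CPM in siSRSF2 libraries (log2 fold change -0.66 with an SE of 0.0423, edgeR adjusted p = 3.04e-13). BRF1 was slightly lower and BRF2 higher. BRF1 (chromosome 14, 105209286 to 105315589, minus strand) stood at 24.7, 25.3 and 24.6 CPM in WT libraries and 20.4, 21.7 and 23.3 CPM in siSRSF2 libraries (log2 fold change -0.19 with an SE of 0.0681, edgeR adjusted p = 0.0188). BRF2 (chromosome 8, 37843268 to 37849904, minus strand) stood at 8.35, 8.86 and 9.32 CPM in WT libraries and 11.1, 12.1 and 13.5 CPM in siSRSF2 libraries (log2 fold change 0.47 with an SE of 0.0955, edgeR adjusted p = 0.000122).

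The BRF1 call did not hold throughout, as its adjusted p from edgeR was 0.51 with scaling by totals, 0.0722 among genes averaging 1 CPM or more, 0.0587 without WT replicate 2, 0.107 without siSRSF2 replicate 1 and 0.051 after thinning. BRF2 shares 59.0% of its exon length with ADGRA2 on the opposite strand, which rose more (1.66, 9.90 to 31.3 CPM), and the part of these shared positions in the BRF2 rise was not tested. The log2 CPM of BRF1 minus that of BRF2 was 1.56, 1.51 and 1.39 in WT and 0.870, 0.836 and 0.789 in siSRSF2 libraries, a difference of -0.66 between the means (two-sided exact permutation p = 0.1, the smallest possible). Per kilobase of exon, BRF1 made up 37.1% ± 1.38 of the sum of both genes in WT and 27.2% ± 0.563 in siSRSF2. These shares rest on merged exons, 13167 bases for BRF1 and 2760 for BRF2, and not on the isoforms the cells use. In CPM, BRF1 was above BRF2 in every library.

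TFIIIA, encoded by GTF3A, binds the gene of the smallest ribosomal RNA, and TFIIIC binds the internal promoter of tRNA genes. GTF3A stood at 50.3, 52.4 and 48.7 CPM in WT libraries and 39.0, 33.6 and 35.5 CPM in siSRSF2 libraries (log2 fold change -0.49 with an SE of 0.0600, edgeR adjusted p = 8.33e-08). Of the 6 TFIIIC genes, 4 fell and 2 did not pass, around a median log2 fold change of -0.29. The smallest subunit had the second-largest fall of the 36 genes: GTF3C6 (chromosome 6, 110958560 to 110967890, plus strand) stood at 140.4, 145 and 151 CPM in WT libraries and 56.4, 55.7 and 54.6 CPM in siSRSF2 libraries (log2 fold change -1.39 with an SE of 0.0480, edgeR adjusted p = 1.57e-18). GTF3C3 and GTF3C5, its partners in the lobe that reads the A box, were close to level. GTF3C3 stood at 74.5, 72.2 and 71.6 CPM in WT libraries and 73.1, 66.0 and 60.5 CPM in siSRSF2 libraries and did not pass (log2 fold change -0.13 with an SE of 0.0572, edgeR adjusted p = 0.0512), although it did without siSRSF2 replicate 1 (-0.20, edgeR adjusted p = 0.00543). GTF3C5 fell 1.17-fold (37.6 ± 1.48 to 32.2 ± 2.93 CPM), a call that ended with scaling by totals (edgeR adjusted p = 0.231).

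The lobe that reads the B box consists of GTF3C1, GTF3C2 and GTF3C4, and its genes differed as well. GTF3C4 (chromosome 9, 132670035 to 132694955, plus strand) stood at 66.3, 68.4 and 68.7 CPM in WT libraries and 38.9, 37.6 and 36 CPM in siSRSF2 libraries (log2 fold change -0.85 with an SE of 0.0531, edgeR adjusted p = 1.84e-13). GTF3C1, the largest subunit, fell 1.28-fold (204 ± 5.32 to 159.8 ± 4.18 CPM). GTF3C2 stood at 54.0, 55.3 and 57.6 CPM in WT libraries and 51.3, 59.0 and 57.3 CPM in siSRSF2 libraries, with overlapping groups (log2 fold change 0.01 with an SE of 0.0563, edgeR adjusted p = 0.912). With scaling by totals it was called higher (0.14, edgeR adjusted p = 0.0474), and 19.0% of its exon length is shared with the antisense gene GTF3C2-AS1 (0.13).

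MAF1 encodes the conserved repressor that binds Pol III when nutrients or growth signals fail. It was lower, not higher, in siSRSF2 cells, at 23.4, 24.3 and 25.9 CPM in WT libraries and 19.0, 22.0 and 20.2 CPM in siSRSF2 libraries (log2 fold change -0.26 with an SE of 0.0714, edgeR adjusted p = 0.00243). The groups did not overlap, but the call ended with scaling by totals (-0.13, edgeR adjusted p = 0.129). MAF1 is controlled mainly through phosphorylation, which RNA counts do not measure.

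**Figure D4:**
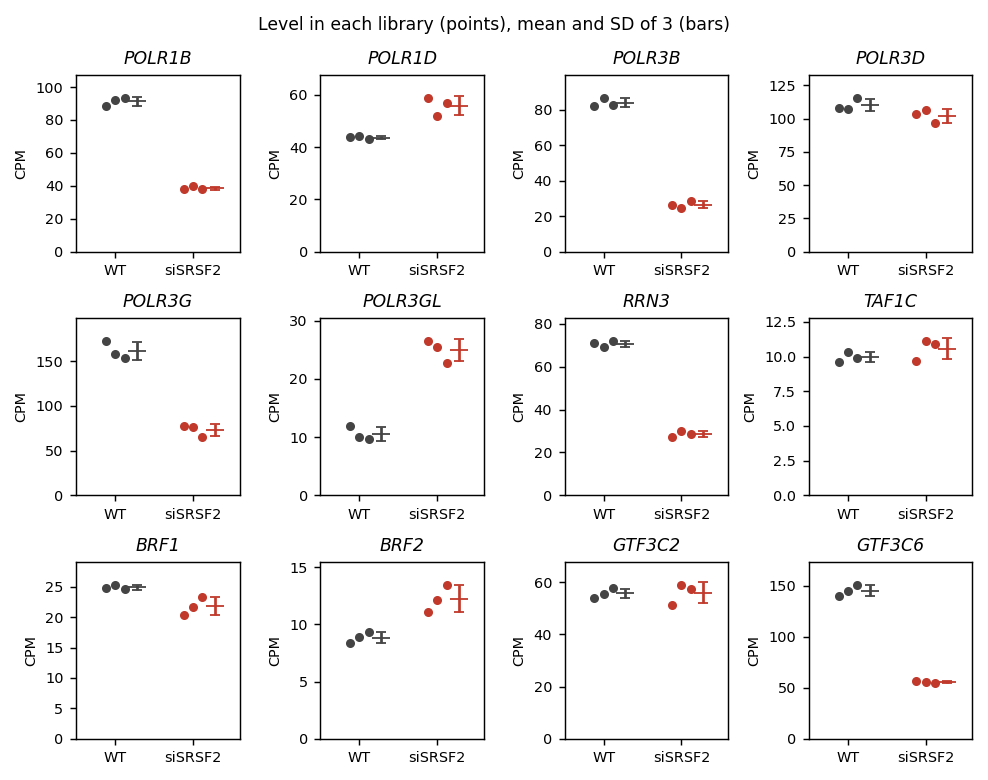
CPM (vertical axes, from 0) of 12 genes in each library (points), with mean and SD of 3 libraries per group. POLR1B, POLR3B, POLR3G, RRN3 and GTF3C6 are lower in siSRSF2, POLR1D, POLR3GL and BRF2 are higher, and TAF1C and GTF3C2 overlap between groups.

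Levels per kilobase of exon spanned a wide range in WT, from 1.79 ± 0.0627 CPM per kb for TAF1C to 1413 ± 20.7 for NPM1. These levels, and the order of genes by them, rest on merged exons and not on the isoforms the cells use. NPM1, NCL, NOLC1, GTF3C6 and POLR3K held the first 5 places in both groups. TAF1C and BRF1 (1.89 ± 0.0298) were the lowest in WT, and POLR1A (14.5 ± 0.321) and POLR1B (14.4 ± 0.442) did not differ beyond their spread. The order was similar in siSRSF2 cells (Spearman's correlation 0.85 over 36 genes), but POLR3GL moved from place 30 to place 12 and POLR3B from 13 to 27. Genes with more RNA in WT tended to have lower log2 fold changes (Spearman's correlation -0.53 for CPM per kb and -0.35 for CPM, over 36 genes), a description in which the WT level enters both quantities. The same correlation was 0.15 for merged exon length and -0.09 for the number of merged exons, which ranged from 3 to 40. Replicates were tight: the SD was a median 2.83% of the mean in WT and 5.82% in siSRSF2 libraries.

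Most other genes of the pathway were lower as well. Of 25 further genes of Pol I and Pol III transcription, 18 fell, 3 rose and 4 did not pass, around a median log2 fold change of -0.60. The largest changes were in CD3EAP, already described, in DDX21, a helicase that links Pol I transcription with rRNA processing (1204 ± 23.6 to 513 ± 19.0 CPM; log2 fold change -1.23 with an SE of 0.0442, edgeR adjusted p = 3.13e-18), and in TWISTNB (42.9 ± 1.40 to 19.5 ± 1.51 CPM). Of the 5 subunits that all 3 nuclear polymerases share, 4 fell, POLR2F most (-0.83), and POLR2H did not pass (-0.13, edgeR adjusted p = 0.0762). The SNAP complex, which serves upstream promoters together with BRF2, was split, with SNAPC4 (-0.76) and SNAPC5 (-0.65) lower, SNAPC1 (0.16) and SNAPC3 (0.20) higher and SNAPC2 not passing. The libraries of the groups overlapped for SNAPC1 (edgeR adjusted p = 0.0195) but not for SNAPC3. BAZ2A, the large subunit of the complex that silences ribosomal DNA repeats, rose 1.38-fold (214 ± 1.36 to 296 ± 9.61 CPM), while its partner SMARCA5 fell (-0.35). SSB (La), which binds the ends of new Pol III transcripts, fell 1.83-fold.

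Genes for Pol II, the polymerase of mRNA, were compared as the nearest counterpart. Of 27 genes for Pol II subunits and initiation factors, 22 fell (81.5%), 2 rose and 3 did not pass. Among the 36 genes, 77.8% fell. The median log2 fold change was -0.42 against -0.70, and 3 of 27 fell by more than 2-fold, POLR2C (-1.13), GTF2A2 (-1.11) and TAF13 (-1.03), against 12 of 36. The difference between these lists was not tested.

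**Figure D5:**
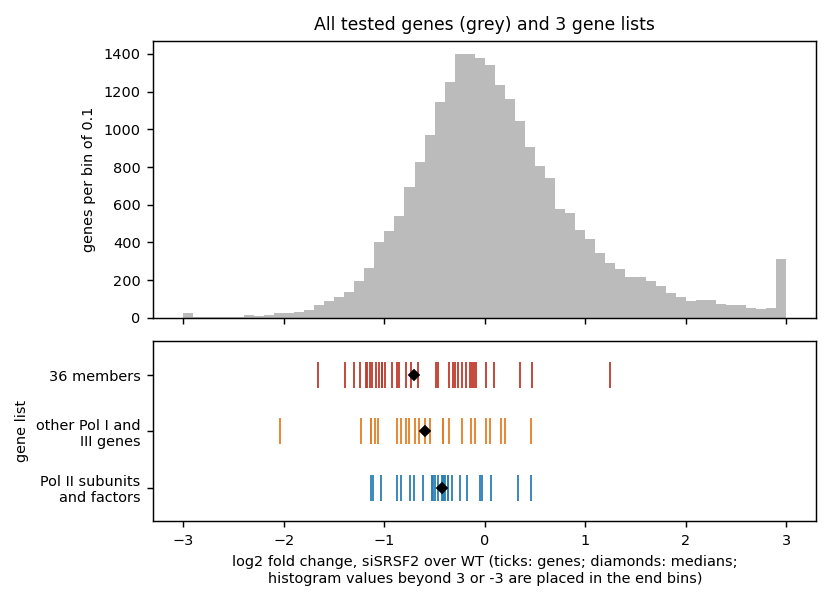
Histogram of log2 fold changes of all 23689 tested genes (top; vertical axis, genes per bin) and the genes of 3 lists as ticks with their medians as diamonds (bottom; horizontal axis, log2 fold change). The medians are -0.70 for the 36 genes, -0.60 for the other Pol I and Pol III genes and -0.42 for Pol II genes.

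Of the transcripts that Pol III makes, few passed the test. Of 14 listed RNAs, 13 were in the table and 10 passed the filter, of which 2 fell and 8 did not pass (median of the 10 log2 fold changes -0.12). Among the 8, RNY3, VTRNA1-3 and BCYRN1 rested on 2 to 34 counts per library, with SEs of 0.558, 0.503 and 0.410. RNY1 rested on 78 to 146 counts (SE 0.183). For these 4 RNAs, not passing does not show a level that stayed the same. RMRP, the RNA of the RNase MRP particle that processes rRNA, stood at 142, 137 and 132 CPM in WT libraries and 121, 96.3 and 124 CPM in siSRSF2 libraries (log2 fold change -0.27 with an SE of 0.0842, edgeR adjusted p = 0.0189), and the vault RNA VTRNA1-2 fell from 2.15 ± 0.382 to 1.2 ± 0.215 CPM (-0.85). RN7SK, the RNA that restrains the elongation factor P-TEFb, stood at 8931 ± 142 CPM in WT and 9668 ± 843 CPM in siSRSF2 (log2 fold change 0.11 with an SE of 0.0515, edgeR adjusted p = 0.06), and RPPH1, the RNA of RNase P, at 994 ± 11.1 CPM in WT and 969 ± 96.4 CPM in siSRSF2 (log2 fold change -0.04 with an SE of 0.0546, edgeR adjusted p = 0.583). RN7SL1 (-0.11) and RN7SL2 (-0.13), near-identical genes whose reads may be divided in unknown ways, did not pass either. The libraries came from an mRNA kit, per the labels' protocols, and a steady level measured in this way is not a rate of synthesis. Ribosomal RNA precursors and tRNAs were not analysed here.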

How the data were processed

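Gene expression was measured by RNA-seq in 6 AGS libraries prepared with an mRNA kit, per the labels' protocols. The authors deposited whole-number read counts per gene in 1 table. The submitters' processing notes name HISAT2 2.0.5, featureCounts 1.5.0-p3 and mm10, a mouse build, although the table lists human genes, and 34 of the 36 genes have exactly their GENCODE 29 (GRCh38) span. No source used here gives the strand setting. Coordinates are those in the deposited table.

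Genes were filtered with edgeR's filterByExpr (minimum count 10), which kept 23689 of 56303 entries and 99.9% of counts. They were scaled by TMM and tested with the robust quasi-likelihood F test of edgeR 4.0.16 in R 4.3.3, with Benjamini-Hochberg adjustment over all tested genes. The SE is the log2 fold change over the square root of F. The steps were tested on simulated data. CPM per kb uses the deposited gene length. Pairs of genes were compared by exact permutation. Alternatives used limma 3.58.1, DESeq2 1.42.0, other scalings and filters, and each library left out.

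In libraries of 26610937 to 50021152 counts, 3 counts equal 0.0630 to 0.110 CPM. No pair of replicates agreed within sampling noise (chi-square per gene 3.83 to 8.75). All members were named, with values per library for up to 2 of each role with the largest change, for paralog pairs and for those that did not pass, and of other lists the 3 largest changes, except that some genes are not reported here. ZNRD1, TBP, POLR2F, POLR2H, the SNAPC genes, BAZ2A, SMARCA5, SSB, RN7SK, RPPH1 and the RN7SL genes were named after their values were seen. So were RNY1, RNY3, VTRNA1-3 and BCYRN1. Members and lists were chosen with earlier results of these data known, and the promoter motifs were chosen after the values were seen.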

Additional observations from a re-analysis of the deposited data

How the results depend on the processing

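Across all alternatives run, 22 to 30 of the 36 genes were called lower, and POLR3GL, POLR1D and BRF2 were called higher in each. The median log2 fold change of the 36 genes was -0.57 with library totals alone, -0.78 with no filter on low counts and -0.65 among genes averaging 1 CPM or more, and -0.71 to -0.69 when 1 library was left out; the cause was not tested. POLR3D turned to 0.0189 and TAF1B to 0.0414 with library totals. GTF3C2 was 0.14 and called higher with library totals (edgeR adjusted p = 0.0474), and was -0.00208 with median-of-ratios factors, -0.0192 with DESeq2, -0.0666 with no filter and -0.0377 to 0.0709 when 1 library was left out. Against a change of 1.2-fold, 22 genes were lower and 3 higher; POLR3E, BRF1, TAF1D, NPM1, GTF3C5 and MAF1 no longer passed. Library totals ended the calls of POLR3E, BRF1, GTF3C5 and MAF1. GTF3C3 was called lower with median-of-ratios factors (edgeR adjusted p = 0.0457), with voom (limma adjusted p = 0.0496) and without the filter (edgeR adjusted p = 0.000663). POLR3D was also called lower without the filter (edgeR adjusted p = 0.00123). Leaving out 1 library moved the POLR3G to POLR3GL difference within -2.43 to -2.37 and the BRF1 to BRF2 difference within -0.70 to -0.62.

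Same-numbered libraries did not deviate together (correlations of 0.013, -0.047 and -0.046), so the numbers were not taken to pair them. With the replicate block, 32 of the 36 genes and 13697 of all genes were called, against 31 and 13991 without it, and GTF3C3 was the gene added (edgeR adjusted p = 0.0357). The differences of the 2 gene pairs, -2.39 and -0.66, cannot change with the block, because the mean of paired differences equals the difference of means. Swapping groups within same-numbered libraries gave a two-sided exact permutation p of 0.25 for each gene pair, the lowest value possible for so few libraries.

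The siSRSF2 libraries were shallower than the WT libraries, the labels do not separate the replicates by culture, and no control siRNA is named. Shared exon positions limit POLR3GL, BRF2, POLR1C, BRF1, GTF3C2 and CRCP, and pseudogenes limit RRN3. POLR3F, a gene of low count, has the widest SE of the 36 genes.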
